A study of Mus musculus with 4 samples.

Results

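The peaks examined here were regions of H3K27me2 in mouse zygotes whose nearest gene was an odorant receptor gene (symbol starting with Olfr) or a vomeronasal receptor gene (Vmn1r or Vmn2r). They were picked by the Entrez identifier of the nearest gene in each of 4 lists (2 genotypes, maternal and paternal genome apart) and numbered 821 of 56036 peaks in all. The zygotes were made by in vitro fertilization of C57BL/6 oocytes (C57BL/6J in the study's methods) with PWK/PhJ sperm, so that a read over a base that differs between the strains could be placed on the genome of 1 parent. Control zygotes (Ezh2m+/p+) came from Ezh2 fl/fl mothers, and Ezh2m-/p+ zygotes from Ezh2 fl/fl mothers with the Gdf9-Cre transgene, active in growing oocytes, and the fathers' Ezh2 allele was intact in each group. Chromatin was pooled from many zygotes, and each genotype had 1 H3K27me2 library and 1 input library, so no difference below has a replicate check and no test was possible. The intervals given are 95% Wilson intervals, which cover counting error only. The lists hold no read counts, so the reads behind a single peak were not known here. The study's reporting summary gives a greater depth for the control H3K27me2 and input libraries than for the Ezh2m-/p+ ones. The counts below were not adjusted for depth.

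H3K27me2 is the dimethyl state of lysine 27 of histone H3, written by Polycomb repressive complex 2 through EZH1 or EZH2, and it is associated with genes that are kept silent. Odorant receptors and vomeronasal receptors are G-protein-coupled receptors, and each olfactory sensory neuron typically expresses 1 odorant receptor gene from 1 allele. Outside sensory tissue nearly all of these genes are silent. They lie in tandem arrays on most chromosomes, with class I odorant receptors in an array of their own on chromosome 7. Vmn1r receptors are used by apical neurons of the vomeronasal organ and Vmn2r receptors by basal ones, which can express more than 1 Vmn2r gene each.

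The sequences in which a peak met a receptor promoter are shown first. RefSeq promoter windows (GRCm38.p6, 250 bases before to 50 after each annotated start) were held for 1267 receptor genes, as 1272 windows. Of these windows, 14 (1.10%, 0.657% to 1.84%) lay under a paternal peak in both genotypes, as did 2.30% of all 32619 RefSeq windows, and 7 of the 14 were on chromosome 14. The windows were searched on both strands for CCCNNGGG, the core bound by Ebf (Olf-1) factors, and for TAATTA, a core bound by homeodomain factors such as Lhx2 (each motif reads the same on both strands, and they do not overlap). CCCNNGGG was in 2 of the 14 windows and TAATTA in 3, and these 5 are printed below with the matches in capitals. They were chosen after their values were seen, apart from Olfr550. The sequence is the C57BL/6 reference, not the PWK/PhJ allele on which the paternal peaks were called.
Olfr550, chr7:102578219-102578518, plus strand: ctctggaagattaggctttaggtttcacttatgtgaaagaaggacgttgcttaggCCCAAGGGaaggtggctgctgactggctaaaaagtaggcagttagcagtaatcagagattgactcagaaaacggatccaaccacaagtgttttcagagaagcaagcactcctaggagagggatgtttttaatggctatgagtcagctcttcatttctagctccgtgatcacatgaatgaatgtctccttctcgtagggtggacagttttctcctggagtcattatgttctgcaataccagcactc
Olfr631, chr7:103914812-103915111, plus strand: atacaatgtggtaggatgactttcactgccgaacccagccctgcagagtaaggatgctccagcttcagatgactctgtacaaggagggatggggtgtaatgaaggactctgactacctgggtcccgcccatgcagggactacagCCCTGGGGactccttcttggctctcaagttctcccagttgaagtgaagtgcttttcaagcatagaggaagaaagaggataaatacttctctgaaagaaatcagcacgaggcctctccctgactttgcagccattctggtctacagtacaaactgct
Olfr609, chr7:103492827-103493126, minus strand: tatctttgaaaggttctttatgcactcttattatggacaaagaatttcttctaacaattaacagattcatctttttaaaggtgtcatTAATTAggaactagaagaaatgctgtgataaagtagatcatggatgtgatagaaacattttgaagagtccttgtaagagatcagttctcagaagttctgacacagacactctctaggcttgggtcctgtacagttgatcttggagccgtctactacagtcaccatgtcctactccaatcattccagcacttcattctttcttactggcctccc
Olfr736, chr14:50392508-50392807, plus strand: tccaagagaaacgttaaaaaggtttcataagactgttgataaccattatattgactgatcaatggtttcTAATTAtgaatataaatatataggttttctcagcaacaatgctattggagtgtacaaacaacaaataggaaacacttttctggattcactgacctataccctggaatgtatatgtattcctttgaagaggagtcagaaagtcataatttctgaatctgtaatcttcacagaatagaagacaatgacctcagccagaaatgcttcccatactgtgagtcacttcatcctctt
Olfr740, chr14:50452804-50453103, plus strand: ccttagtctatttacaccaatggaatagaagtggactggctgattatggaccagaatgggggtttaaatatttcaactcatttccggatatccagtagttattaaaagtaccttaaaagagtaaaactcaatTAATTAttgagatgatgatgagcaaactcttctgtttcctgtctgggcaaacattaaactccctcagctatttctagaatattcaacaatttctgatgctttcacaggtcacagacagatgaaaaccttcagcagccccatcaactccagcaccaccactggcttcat

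Olfr550, Olfr609 and Olfr631 belong to the class I array on chromosome 7, and Olfr736 and Olfr740 to an array on chromosome 14. The Olfr550 window lay under a paternal peak of 144-fold over input in Ezh2m+/p+ zygotes and of 158-fold in Ezh2m-/p+ zygotes. The Olfr631 window lay under peaks of 48.1-fold and 6.90-fold, in the same order, thus higher in the control library. The lists give Olfr65, whose start is over 6 kb away, as the nearest gene of these peaks, and Olfr631 itself was the nearest gene of none. The folds were 10.5 and 55.2 over Olfr736, 12.0 and 33.5 over Olfr740, and 8.02 and 19.7 over Olfr609. Over all 14 windows the fold was larger in the control library in 8 and in the Ezh2m-/p+ library in 6, so neither library had the larger fold throughout.

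Only 1 receptor gene had a maternal peak within 1 kb of its start in both genotypes, Olfr1342 on chromosome 4, where 0.349% of all genes did. In the single lists 4 and 5 receptor genes (0.273% and 0.341%) had such a peak, against 2.23% and 3.54% of all genes. The peaks of Olfr1342 were 5.19-fold and 2599 bp long in Ezh2m+/p+ zygotes and 21.4-fold and 1399 bp long in Ezh2m-/p+ zygotes. Its RefSeq window, which holds neither motif, lay under the control peak and not under the other.
Olfr1342, chr4:118690401-118690700, minus strand: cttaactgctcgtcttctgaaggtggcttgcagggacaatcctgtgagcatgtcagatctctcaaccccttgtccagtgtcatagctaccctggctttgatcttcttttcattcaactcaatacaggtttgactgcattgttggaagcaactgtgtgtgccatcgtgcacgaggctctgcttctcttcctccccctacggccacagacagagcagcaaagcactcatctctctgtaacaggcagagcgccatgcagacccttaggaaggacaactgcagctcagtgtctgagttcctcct

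Across all receptor windows, TAATTA occurred in 16.6% (14.6% to 18.7%) and CCCNNGGG in 4.17% (3.20% to 5.41%), against 5.25% and 13.8% of all RefSeq windows. The 3 families differed in this. TAATTA was in 18.6% of Olfr, 7.28% of Vmn1r and 16.9% of Vmn2r windows, while CCCNNGGG was in 3.06%, 0.485% and 19.5%. Receptor windows were poor in G+C, with a median of 35.7% against 53.0% for all windows. The 46 receptor windows under a paternal peak of either genotype held TAATTA in 21.7% (12.3% to 35.6%), and the 1226 under none in 16.4% (14.4% to 18.6%), so the intervals overlapped.

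Receptor peaks were few on the maternal genome and more common on the paternal genome. The maternal lists held 26 receptor peaks of 5744 in Ezh2m+/p+ zygotes and 55 of 9606 in Ezh2m-/p+ zygotes. The paternal lists held 322 of 17863 and 418 of 22823. As shares of their lists these were 0.453% (0.309% to 0.662%) and 0.573% (0.440% to 0.744%) for the maternal genome, and 1.80% (1.62% to 2.01%) and 1.83% (1.67% to 2.01%) for the paternal genome. The 2 genotypes' intervals overlapped in each parental genome, whereas those of the parental genomes did not. These intervals take peaks as independent, but 116 of the 322 and 124 of the 418 paternal ones were nearest genes of a single array on chromosome 14. The intervals are therefore too narrow, and with 1 library per genotype their overlap is no test.

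These shares were set beside the sequence that the receptor genes have around them. Of a 1 kb grid over chromosomes 1 to 19 and X, 2.15% (55.5 Mb) had a receptor gene as its nearest annotated start. Maternal receptor peaks came to 0.469 and 0.992 per Mb of that sequence in Ezh2m+/p+ and Ezh2m-/p+ zygotes, against 2.27 and 3.79 per Mb of the remainder. Paternal receptor peaks came to 5.81 and 7.54 per Mb against 6.97 and 8.90 per Mb. By family, sequence nearest Olfr genes held 9.09 and 11.2 paternal peaks per Mb, above the remainder, but 121 of its 284 and 129 of its 351 peaks were on chromosome 14. Without that chromosome it held 5.62 and 7.65 per Mb, below the 6.78 and 8.79 of the remainder. Sequence nearest Vmn1r genes held 2.28 and 3.17 and sequence nearest Vmn2r genes 1.06 and 2.48, below the remainder.

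Most receptor genes were the nearest gene of no peak. Of 1465 receptor genes with coordinates (1115 Olfr, 228 Vmn1r and 122 Vmn2r), 1169 (79.8%) had none in any list. The 296 with a peak in at least 1 list were 20.2% (18.2% to 22.3%), against 46.1% of all genes. On the maternal genome 24 receptor genes (1.64%) had at least 1 peak in Ezh2m+/p+ zygotes, where the background over all 22076 genes was 14.9%, and 45 (3.07%) had one in Ezh2m-/p+ zygotes, where it was 21.5%. On the paternal genome 163 (11.1%, 9.62% to 12.8%) had one in Ezh2m+/p+ zygotes against a background of 20.6%, and 196 (13.4%, 11.7% to 15.2%) in Ezh2m-/p+ zygotes against 24.2%. Receptor genes were thus below the background in each of the 4 lists, by a wider margin in the maternal ones. They lie close together, being 6.64% of the genes but nearest to 2.15% of the sequence. Per Mb of that sequence, paternal receptor peaks were nearer the remainder (5.81 against 6.97 and 7.54 against 8.90). The part of gene spacing in these shares was not tested. Zinc finger protein genes (symbol starting with Zfp), many of them also in tandem arrays, were at 7.14% and 15.3% in the maternal lists and 18.4% and 25.3% in the paternal ones, of 392 genes.

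The 3 families were not alike. Of the Olfr genes, 13.2% (11.3% to 15.3%) had a paternal peak in Ezh2m+/p+ zygotes and 15.2% (13.2% to 17.4%) in Ezh2m-/p+ zygotes. Of the Vmn1r genes, 3.07% (1.49% to 6.20%) and 3.95% (2.09% to 7.33%) did. Vmn2r genes stood at 7.38% (3.93% to 13.4%) and 14.8% (9.54% to 22.1%), with 9 and 18 genes. Maternal peaks marked 20 and 42 Olfr genes, 1 and 2 Vmn1r genes, and 3 and 1 Vmn2r genes.

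**Figure D1:**
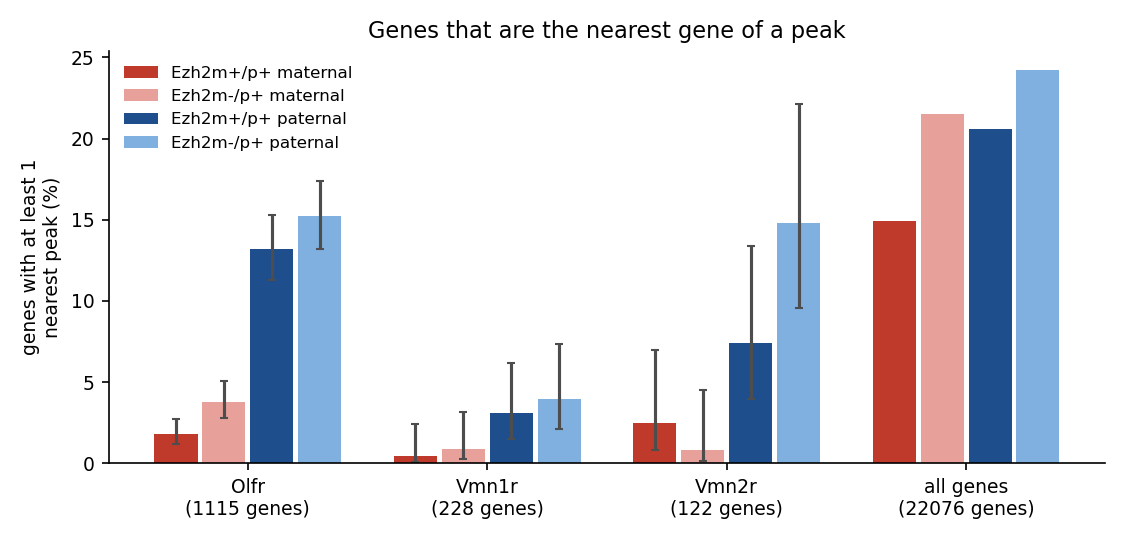
Share of genes that were the nearest gene of at least 1 peak (vertical axis, percent) for each receptor family and for all genes, in the 4 lists; error bars are 95% Wilson intervals over genes. The Olfr bars of the paternal lists stand at 13.2% and 15.2% and every receptor bar is below the bar of the same list for all genes.

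The share of paternal receptor peaks was nearer the share of receptor genes on some chromosomes than on others. Chromosome 14 held 41 receptor genes, 2.80% of them, and 126 of the 322 paternal receptor peaks in Ezh2m+/p+ zygotes (39.1%) and 135 of the 418 in Ezh2m-/p+ zygotes (32.3%). Chromosome 1 held 29 receptor genes (1.98%) with 32 and 48 paternal receptor peaks (9.94% and 11.5%), where 13.7% and 11.5% of all paternal peaks lay. Chromosome 2 held 289 genes (19.7%) with 15.5% and 16.3% of the paternal receptor peaks, and chromosome 11 held 83 (5.67%) with 5.59% and 4.78%. Chromosome 17 held 94 (6.42%) with 7.76% and 9.33%. On these chromosomes the shares of genes and peaks lay nearer each other than on chromosome 14, without being equal. Chromosome 7 held the most receptor genes, 414 (28.3%), with 42 and 73 (13.0% and 17.5%). Chromosome 9, with 133 genes, had 4 and 3, and chromosomes 6 and 10, with 88 and 75 genes, had none in either paternal list. The share of all paternal peaks on chromosome 14 was 7.79% and 6.36%, so the surplus there was larger among receptor peaks than in the lists as a whole.

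The maternal peaks were spread otherwise. Chromosome 16, with 38 receptor genes, held 4 of 26 and 11 of 55 (15.4% and 20%), where 2.87% and 2.83% of all maternal peaks lay. Chromosome 2, with 289, held 4 and 12 (15.4% and 21.8%), against 12.5% and 9.40% of all. Chromosome 14 had 0 and 1 maternal receptor peaks, with 4.00% and 5.90% of all maternal peaks, and chromosome 1 had none, with 7.87% and 9.87%. With 26 and 55 peaks in all, each of these shares is imprecise.

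**Figure D2:**
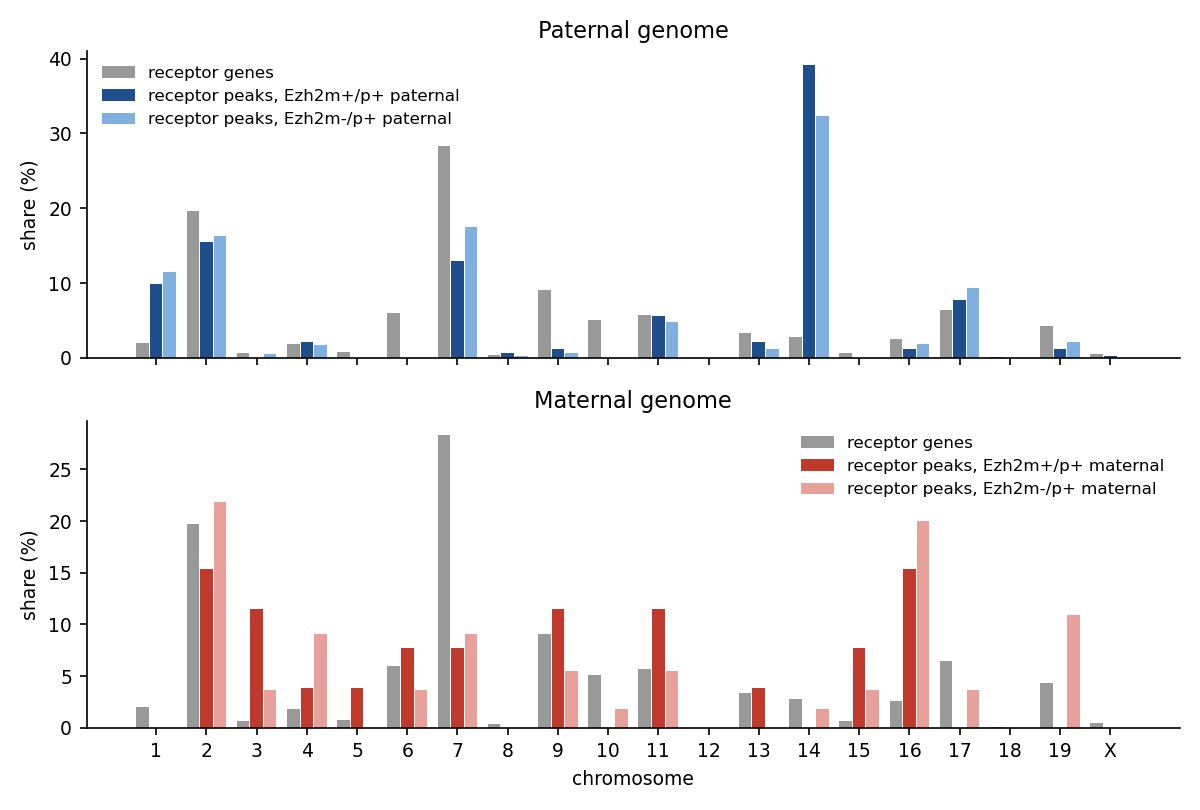
Share of receptor genes (grey) and of receptor peaks (colour) on each chromosome, in percent, for the paternal lists (upper panel) and the maternal lists (lower panel). Chromosome 14 carries 2.80% of the genes and 39.1% and 32.3% of the paternal receptor peaks, and chromosomes 6 and 10 carry none of the paternal ones.

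Receptor genes at most 1 Mb apart were joined into clusters, Olfr genes separately from Vmn1r and Vmn2r genes, which gave 59 clusters of 2 or more genes. The 30 clusters of 10 or more genes held 1306 genes. Over these 30, Spearman's rho between the number of genes and the number of paternal receptor peaks was 0.480 in Ezh2m+/p+ zygotes and 0.451 in Ezh2m-/p+ zygotes, and for maternal peaks it was 0.378 and 0.410. These are descriptions over clusters that share a library. In 7 of the 30 clusters, with 118 genes, no list had a receptor peak. They were Olfr310 to Olfr292, Olfr522 to Olfr541 and Vmn1r55 to Vmn1r65 on chromosome 7, Olfr56 to Olfr1380 on chromosome 11, Vmn2r8 to Vmn2r17 on chromosome 5, and Vmn1r4 to Vmn1r31 and Vmn1r40 to Vmn1r54 on chromosome 6.

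The cluster from Olfr722 to Olfr1507 (chr14:49894258-52495749) stood apart. Its 36 Olfr genes were the nearest to 116 paternal peaks in Ezh2m+/p+ zygotes and 124 in Ezh2m-/p+ zygotes, which marked 34 and 35 of the 36. No maternal peak of either genotype was inside it. Counting every peak by its midpoint, whatever its nearest gene, there were 262 and 231 paternal peaks inside, or 101 and 88.8 per Mb. Of these, 38.5% and 46.8% had a receptor gene as the nearest one, and receptor genes were 45.2% of the 84 genes annotated there. These shares include Vmn2r88 and Vmn2r89, which lie between the Olfr genes and bring the receptor genes inside to 38. In bins of 100 kb, the 14 bins with a receptor gene start had a median of 9.50 and 10.0 paternal peaks, and the 12 bins without one had 12.0 and 8.50. Bins with and without receptor genes were thus of similar density.

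The dense stretch also ran past the cluster. The 1 Mb before its first gene held 116 and 118 paternal peaks. The 300 kb after its last gene held 18 and 18, and the next 700 kb held 2 and 4. The cluster from Olfr16 to Olfr220 (chr1:172950409-174451277, 20 genes) also had many paternal peaks inside, 73 and 90 (48.6 and 60 per Mb), and no maternal peak. The chromosome 14 cluster, at 101 and 88.8 paternal peaks per Mb, was above the average of its flanks (68.0 and 70.0 per Mb). That average joins unlike sides. The cluster was less dense than the 1 Mb before it (116 and 118) and denser than the sequence after it. The chromosome 1 cluster was less dense than the average of its own flanks, 128 and 104 paternal peaks per Mb over the 1 Mb on each side. Its 7 bins with a receptor gene start had a median of 5 and 8 paternal peaks, and the 8 without one had 2.50 and 3.50. The cluster from Olfr30 to Olfr225 on chromosome 11 (24 genes) had 43 and 47 paternal peaks inside together with 7 and 7 maternal ones. All of those maternal peaks, and 25 and 24 of the paternal ones, lay in a stretch of 726 kb without a receptor gene, which left 18 and 23 paternal peaks in the parts with receptor genes.

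Large clusters elsewhere held far fewer peaks for their genes. The largest, Olfr987 to Olfr1274 on chromosome 2, had 224 genes and was nearest to 45 and 63 paternal peaks and to 3 and 6 maternal ones. In 29 of its 51 bins of 100 kb there was no paternal peak in Ezh2m+/p+ zygotes, and likewise in 29 in Ezh2m-/p+ zygotes. The class I cluster, Olfr543 to Olfr692 on chromosome 7 with 125 genes, had 17 and 30. The neighbouring Olfr693 to Olfr519, with 67 genes, had 0 and 1. Olfr160 to Olfr986 on chromosome 9, with 98 genes, had 4 and 3, while the sequence on each side of it held 16.5 and 22.5 paternal peaks per Mb. Olfr9 to Olfr827 on chromosome 10, with 58 genes, had no paternal receptor peak.

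Among clusters with few or no paternal peaks, some held maternal ones. Olfr338 to Olfr368 on chromosome 2, with 28 genes, had 1 and 6 maternal receptor peaks and no paternal peak inside or within 1 Mb. Olfr164 to Olfr171 on chromosome 16, with 8 genes, had 3 and 10 maternal receptor peaks and no paternal one. Among the vomeronasal clusters, Vmn2r29 to Vmn1r89 on chromosome 7 (52 genes) had the most paternal receptor peaks, 20 and 31, and Vmn2r90 to Vmn1r237 on chromosome 17 (35 genes) had 2 and 11.

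**Figure D3:**
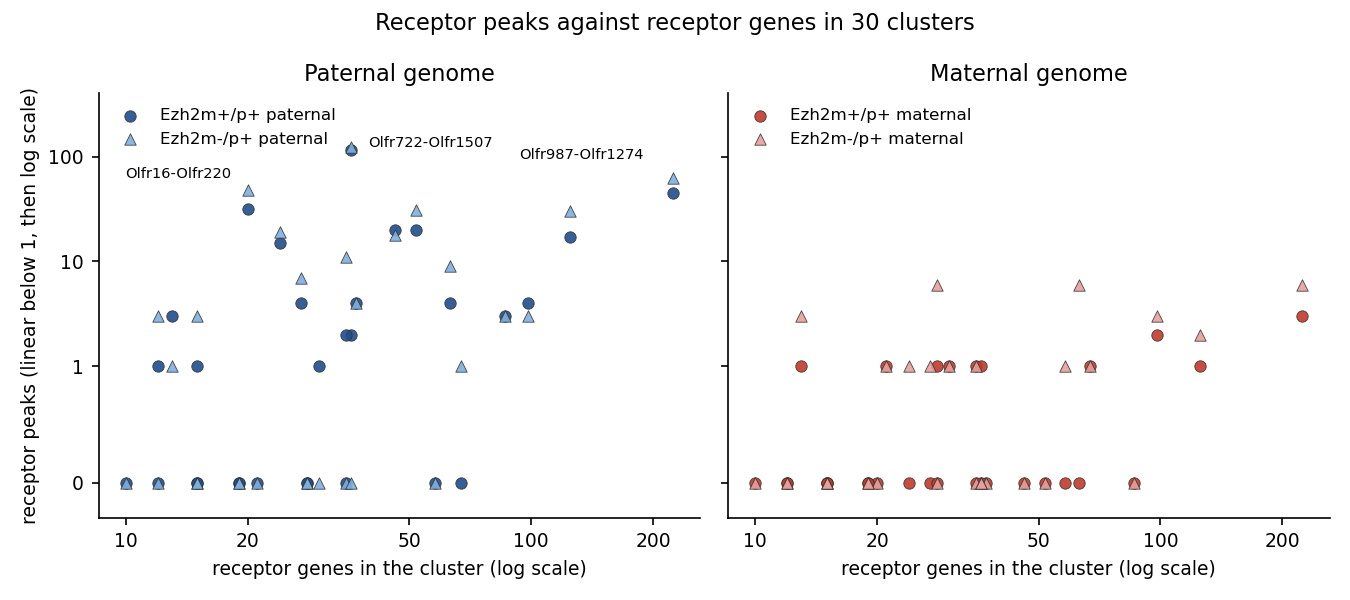
Number of receptor peaks (vertical axis, linear below 1 and logarithmic above) against the number of receptor genes (horizontal axis, logarithmic) in the 30 clusters of 10 or more genes; each cluster has 1 point per list. The Olfr722 to Olfr1507 cluster, with 36 genes, has 116 and 124 paternal peaks and none on the maternal genome, and Olfr987 to Olfr1274, with 224 genes, has 45 and 63.

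**Figure D4:**
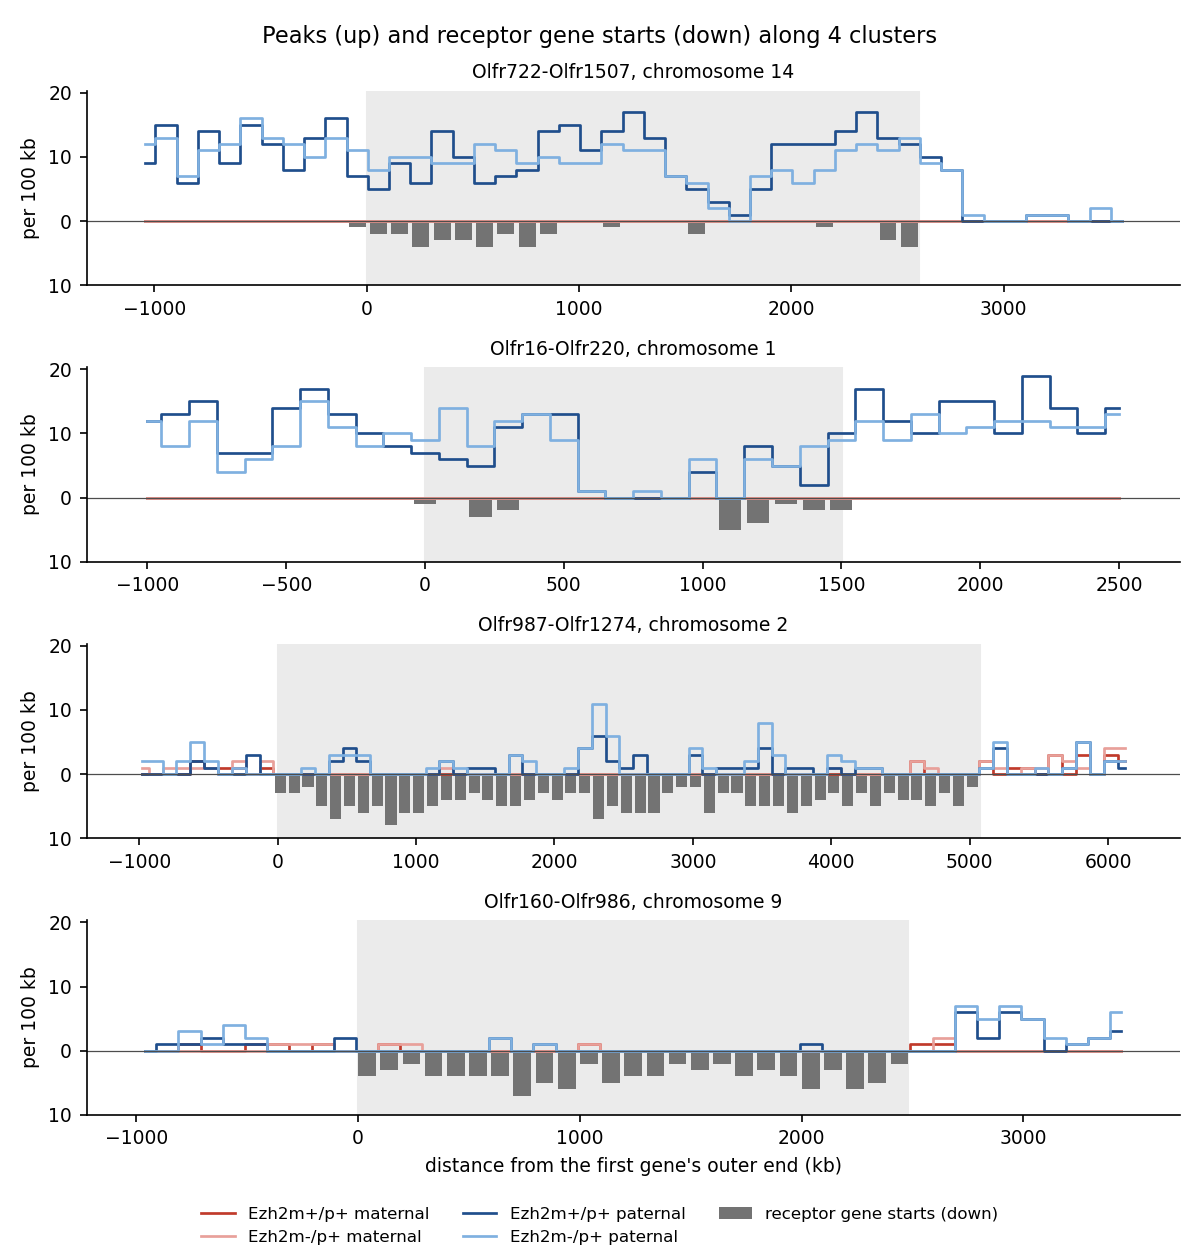
Peaks per 100 kb (lines, upward) and receptor gene starts per 100 kb (grey bars, downward) along 4 clusters and the 1 Mb on each side, against the distance in kb from the outer end of the cluster's first gene; the shaded span is the cluster. Paternal peaks stay dense between the genes of the chromosome 14 cluster, reach 17 per 100 kb in Ezh2m+/p+ zygotes, and thin out within 300 kb after it, while the chromosome 9 cluster has at most 2 per 100 kb.

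Inside all clusters of 2 or more genes, which cover 60.5 Mb, the maternal genome held 0.463 and 1.04 peaks per Mb in Ezh2m+/p+ and Ezh2m-/p+ zygotes, and the rest of the same chromosomes 2.27 and 3.71, a ratio of 0.204 and 0.281. The paternal genome held 9.10 and 10.3 per Mb inside and 6.96 and 8.92 outside, a ratio of 1.31 and 1.16. Without the Olfr722 to Olfr1507 cluster the paternal ratio was 0.715 and 0.761, so its side of 1 rested on that cluster, while the maternal ratio was 0.213 and 0.293. Olfr clusters had paternal ratios of 2.07 and 1.78, which were 1.07 and 1.11 without that cluster, and Vmn clusters had 0.270 and 0.330. The maternal ratios were 0.324 and 0.454 in Olfr clusters and 0.0381 and 0.0338 in Vmn clusters.

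Paternal density inside a cluster went with the density beside it. Over the 30 large clusters Spearman's rho between the 2 densities was 0.731 in Ezh2m+/p+ zygotes and 0.609 in Ezh2m-/p+ zygotes. Inside density was below that of the flanks in 15 and 15 clusters and above it in 8 and 9, with medians of 1.74 and 1.39 per Mb inside against 4.00 and 6.25 beside. On the maternal genome rho was 0.471 and 0.381, and inside density was below in 19 and 22 clusters and above in 4 and 5.

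**Figure D5:**
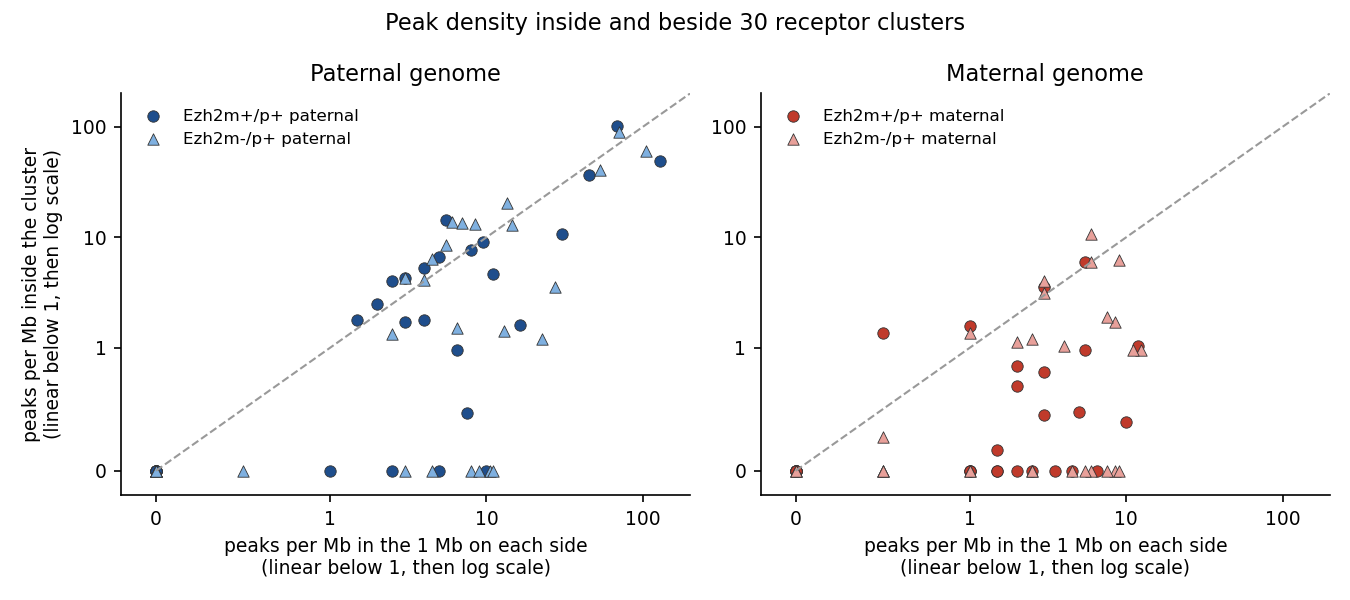
Peaks per Mb inside each of the 30 clusters of 10 or more genes (vertical axis) against peaks per Mb over the 1 Mb on each side (horizontal axis), both linear below 1 and logarithmic above; the dashed line marks equal density. Paternal points lie below the line in 15 and 15 clusters and above it in 8 and 9, and maternal points lie below it in 19 and 22.

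Reads from near-identical copies can be lost at the step that keeps uniquely mapped reads. Of 100-base words in the receptor clusters, 82.1% occurred once in the reference chromosomes, against 93.7% elsewhere, and 48.9% of bases were repeat-masked against 34.0%. The chromosome 14 cluster had 91.6% unique words, the chromosome 9 cluster 93.2%, the chromosome 10 cluster 88.7% and the Vmn1r4 to Vmn1r31 cluster without a peak 91.9%. The Vmn1r91 to Vmn1r183 cluster on chromosome 7 (86 genes, 3 and 3 paternal receptor peaks) had 25.7%. The Vmn2r29 to Vmn1r89 cluster on the same chromosome (52 genes, 20 and 31 paternal receptor peaks) had 54.0%. The part of such losses, and of the strains' sequence differences that decide the parental assignment, was not tested.

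Some genes drew many peaks. Olfr1507 (MOR28), at the end of the chromosome 14 cluster, was the nearest gene of 21 paternal peaks in Ezh2m+/p+ zygotes and 20 in Ezh2m-/p+ zygotes, which lay up to 174 kb and 228 kb from its start. Their folds ran from 9.03 through a median of 48.1 to 114 in the control and from 7.88 through 24.6 to 221 in the Ezh2m-/p+ list, and 16 of the 21 overlapped a peak of the other genotype. Olfr16 (MOR23) had 7 peaks, with a median fold of 84.3, and 14 peaks, with a median of 13.8. Vmn1r67 had 9 and 13 and Vmn1r66 had 8 and 10. On the maternal genome Olfr164 had 2 and 7 peaks, Olfr1402 had 2 and 2, Olfr346 had 1 and 2, and Olfr1505 had 0 and 3, all 3 of them at least 169 kb from its start. No other receptor gene had more than 1 peak in a maternal list.

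The largest folds among receptor peaks were paternal. In Ezh2m+/p+ zygotes they were a peak near Vmn2r89 (chr14:51432601-51436799, 193-fold), one near Olfr16 (chr1:172933201-172936399, 193-fold) and one near Olfr221 (chr14:52048401-52052999, 181-fold). In Ezh2m-/p+ zygotes they were a pair near Vmn1r67 (chr7:10370401-10376399, 331-fold, and chr7:10411001-10416399, 252-fold) and one over the start of Olfr1018 (chr2:85820401-85825799, 284-fold). All 6 peaks given with their positions overlapped a peak of the other genotype. The maternal maxima were 45.6-fold near Olfr19, 42.9-fold near the start of Olfr1378 and 41.5-fold near Olfr455 in Ezh2m+/p+ zygotes, and 45.1-fold near Olfr346, 39.8-fold near Olfr1336 and 37.5-fold near Olfr921 in Ezh2m-/p+ zygotes. Of these 6, the Olfr921 peak overlapped one of the other genotype. A peak of Olfr281 was also at 37.5-fold in the Ezh2m-/p+ maternal list, level with Olfr921, and is not counted among the 6. The longest receptor peak, 28399 bp, covered the start of Olfr221 on chromosome 14 in Ezh2m-/p+ zygotes at 9.32-fold. It overlapped 5 control peaks, of 41.4, 17.3, 17.3, 9.03 and 181-fold, the last of them the Olfr221 peak named above. The longest receptor peaks of the other lists were 5999 bp (Olfr1510, control paternal), 5999 bp (Olfr692, control maternal) and 4399 bp (Olfr1262, Ezh2m-/p+ maternal).

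The median fold of paternal receptor peaks was above that of the paternal lists. It was 48.1 against 36.1 in Ezh2m+/p+ zygotes and 21.7 against 15.8 in Ezh2m-/p+ zygotes. Maternal medians were 6.79 against 7.37 and 24.5 against 23.7. Fold took few distinct values. In Ezh2m+/p+ zygotes 72.7% of paternal receptor peaks and 63.9% of all paternal peaks were whole multiples of 12.0 (within 1e-05), and in Ezh2m-/p+ zygotes 45.9% and 37.1% were whole multiples of 15.8. Folds were therefore coarse, which limits any comparison of 1 peak between libraries, and the control medians are 1 step apart. Among peaks over 10-fold the medians of receptor peaks and of all peaks were equal, at 48.1 in the control library and 63.0 in the Ezh2m-/p+ library, so the difference in medians was not seen there. Median length was 1599 bp for paternal receptor peaks and 1799 bp for all in Ezh2m+/p+ zygotes, and 2199 bp and 1999 bp in Ezh2m-/p+ zygotes.

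Receptor peaks lay near gene starts. Their median distance to the nearest start was 6.42 and 6.34 kb in the paternal lists, against 23.7 and 25.7 kb for all peaks, and 11.1 and 8.82 kb in the maternal lists, against 21.0 and 20.1 kb. Genes of a tandem array lie close together, and the part of that spacing in the distances was not tested. The share annotated as promoter (within 3 kb of a start) was 28.6% (23.9% to 33.7%) and 30.1% (25.9% to 34.7%) in the paternal lists, against 17.3% and 16.9% of all peaks. Within 1 kb it was 14% and 16.0% against 10.5% and 10.9%. The intron share was 3.42% and 3.83% against 28.2% and 27.3%. Counted over promoters instead, 1.57% and 3.14% of receptor windows were under a paternal peak, against 3.29% and 4.67% of all windows.

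A paternal peak within 1 kb of the start was found for 41 receptor genes in Ezh2m+/p+ zygotes and 65 in Ezh2m-/p+ zygotes. These were 2.80% (2.07% to 3.77%) and 4.44% (3.50% to 5.62%) of the receptor genes, below the 6.11% and 8.23% of all genes. In both groups there were 23 receptor genes (1.57%, 1.05% to 2.34%), against a background of 4.33%. The 5 of largest fold were Olfr1018 on chromosome 2 (72.2-fold and 284-fold), Olfr550 (144-fold and 158-fold), Olfr738 (48.1-fold and 142-fold) and Olfr749 (48.1-fold and 126-fold) on chromosome 14, and Olfr1404 on chromosome 1 (108-fold and 24.1-fold). Over the 23 genes the larger fold was in the Ezh2m-/p+ list for 12 and in the control list for 11, among them Olfr90 (90.3-fold in the control and 10.5-fold in the other) and Olfr49 (72.2-fold and 7.88-fold), picked after their values were seen.

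Receptor peaks were lower in G+C and CpG than the other peaks. Median G+C was 41.7% and 40.5% in paternal receptor peaks, against 44.7% and 44.0% in the others, and 44.1% and 43.6% against 45.5% and 45.6% on the maternal genome. The ratio of observed to expected CpG was 0.109 and 0.111 against 0.177 and 0.173 on the paternal genome. Repeat-masked bases made up 30.9% and 35.1% of paternal receptor peaks at the median, against 20.8% and 21.3% of the others. Receptor clusters themselves had 39.3% G+C, against 41.8% elsewhere.

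Paternal receptor peaks overlapped between the genotypes at or somewhat below the rate of all peaks. Of the 322 in Ezh2m+/p+ zygotes, 192 (59.6%, 54.2% to 64.8%) overlapped a paternal peak of Ezh2m-/p+ zygotes by at least 1 bp, where the background over all peaks of the list was 66.1%. On chromosome 14 the share was 76.2% (68.0% to 82.8%), near the 73.6% of all paternal peaks there, on chromosome 2 it was 52.0% (38.5% to 65.2%) against 65.8%, and on chromosome 7 it was 40.5% of 42 peaks against 56.8%. Of the 418 in Ezh2m-/p+ zygotes, 175 (41.9%, 37.2% to 46.6%) overlapped a control peak, where the background was 45.7%. In that direction the shares were 60.7% on chromosome 14, 35.3% on chromosome 2 and 24.7% on chromosome 7, against 56.9%, 44.2% and 38.7% of all peaks there. On the maternal genome 6 of 26 (23.1%, 11.0% to 42.1%) overlapped a peak of the other genotype, against a background of 9.47%, and 5 of the 55 in Ezh2m-/p+ zygotes (9.09%, 3.95% to 19.6%) did, against 5.78%. With fold over 10 in both lists the control share was 0% (0% to 39.0%) of 6 peaks, so its side of the background was not stable. By gene, 116 receptor genes (7.92%) had a paternal peak in both genotypes, against a background of 17.9%. They were 71.2% of the receptor genes of the control list and 59.2% of those of the other, where over all genes these shares were 86.9% and 74.0%. On the maternal genome 12 receptor genes (0.819%) had a peak in both, against a background of 8.61%, and made up 50% and 26.7% of the lists' receptor genes, where over all genes it was 57.8% and 40.1%. Among them were Olfr164, Olfr346, Olfr921 and Olfr1342. Over the 30 large clusters the paternal receptor counts of the genotypes had a rho of 0.924, with more peaks in Ezh2m-/p+ zygotes in 12 clusters, more in the control in 5 and equal counts in 13. In 11 of those 13 both counts were 0, and over the other 19 clusters rho was 0.880. For maternal receptor counts rho was lower, 0.594 over the 30 clusters and 0.259 over the 15 with a maternal receptor peak. The Ezh2m-/p+ lists were the longer ones on both parental genomes, and genotype cannot be told apart from library.

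No receptor peak overlapped a peak of the other parental genome in its genotype. None of the 26 and 55 maternal receptor peaks overlapped a paternal peak of its genotype (upper bounds 12.9% and 6.53%), where the backgrounds were 0.418% and 0.416%, so with these numbers the receptor peaks could not be set apart from the rest. No receptor gene had both maternal and paternal peaks in Ezh2m+/p+ zygotes, where 4.05% of all genes did, and Olfr464 and Olfr521 did in Ezh2m-/p+ zygotes (0.137% of receptor genes, 0.0374% to 0.496%), where 6.25% of all genes did. Olfr464 had a maternal peak of 19.1-fold and a paternal one of 110-fold, and Olfr521 a maternal peak of 5.93-fold and a paternal one of 9.85-fold.

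Of 13 well-studied receptors, 2 had a peak, both on the paternal genome alone (15.4% in each paternal list, against 20.6% and 24.2% of all genes and 11.1% and 13.4% of receptor genes). With 13 genes this share cannot be set apart from either. The 2 were Olfr16 and Olfr1507, described above. The other 11, among them Olfr2 (I7), Olfr17 (P2), Olfr151 (M71), Olfr160 (M72), Olfr73, Olfr78, Vmn2r26 and the ESP1 receptor Vmn2r116, had none in any list. Of 23 genes for the signalling or choice of receptors, 4 and 11 had a maternal peak in Ezh2m+/p+ and Ezh2m-/p+ zygotes (17.4% and 47.8%, where the backgrounds over all genes were 14.9% and 21.5%), and 8 and 10 had a paternal one (34.8% and 43.5%, against 20.6% and 24.2%). Ebf1, a transcription factor of olfactory neurons, had 7 and 9 maternal and 7 and 7 paternal peaks. Kdm1a, a histone demethylase needed for receptor choice, had 5 and 13, and Emx2, a homeodomain factor, had 11 and 6, all paternal. Lhx2, another homeodomain factor of these neurons, had 2 and 2 peaks, all maternal.

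A further 81 genes were picked by symbol from families that hold other chemosensory receptors (Taar, Fpr, Tas1r, Tas2r and Ms4a families and Gucy2d). Not every member of these families is a chemosensory receptor. Of the 81, 25 (30.9%, 21.9% to 41.6%) and 32 (39.5%, 29.6% to 50.4%) had a paternal peak, against the backgrounds of 20.6% and 24.2%. A maternal one was found for 8 (9.88%, 5.09% to 18.3%) and 7 (8.64%, 4.25% to 16.8%), against 14.9% and 21.5%. Most of the paternal ones belonged to 1 array of 24 bitter taste receptor genes (chr6:131629823-133055816), of which 16 and 20 had a paternal peak. Without it 9 and 12 of 57 did (15.8%, 8.54% to 27.4%, and 21.1%, 12.5% to 33.3%), and these intervals overlapped those of all odorant and vomeronasal receptor genes together, though not those of the Vmn1r genes alone. None of the 15 Taar genes, most of which encode odorant receptors for amines, had a peak in any list. Tas1r2, a subunit of the sweet taste receptor, had 14 and 16 paternal peaks of up to 84.3-fold and 126-fold. The bitter taste receptor genes Tas2r140, Tas2r103 and Tas2r114 of that array had 7 and 3, 5 and 4, and 3 and 7 paternal peaks, and no maternal one.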

How the data were processed

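The H3K27me2 peaks of mouse zygotes were analysed from 4 deposited lists, with 1 library and 1 input per genotype (Ezh2m+/p+ and Ezh2m-/p+). Per the study's methods, the authors used Trimmomatic 0.38 for trimming and Bowtie2 for alignment (build mm10), kept uniquely mapped and non-duplicate reads, split them by parental strain, called peaks with SICER and kept those past a length and fold limit. The deposited value of a peak is its fold over input, a linear ratio. The nearest gene, distance and category are those of the authors' annotation. A deposited depth table was not used here.

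Entrez identifiers were matched to RefSeq symbols (11459 of 11472 matched), and 296 of the 297 receptor genes in the lists had GENCODE vM21 coordinates. The chosen families, gene lists and comparisons were set with earlier results of these data known. Genes at most 1 Mb apart formed a cluster, and a peak was inside if its midpoint was. Named genes were those with most peaks, the largest folds or promoter peaks in both genotypes, a list of well-studied receptors, and clusters of 10 or more genes. With 1 library per group no test was run. Shares have Wilson intervals. Counting steps were checked on simulated data. Alternatives were other fold, length, distance, overlap, gap and gene definitions. Python 3.11.15, numpy 2.4.6 and pandas 2.3.3 were used.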

Additional observations from a re-analysis of the deposited data

How the results depend on the processing

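No paired analysis was possible because each genotype had 1 library and no test was made. Of 147 alternative values, 111 stayed within the interval, or within 1.5 times, of the reported one. The share of receptor peaks moved with fold over 10 to 0.258% (Ezh2m+/p+ maternal), with length over 2000 bp to 0.411% (Ezh2m-/p+ maternal) and 2.05% (Ezh2m-/p+ paternal), with overlap of a gene body and 10 kb on each side to 0.396% (Ezh2m-/p+ maternal), 1.47% and 1.42% (paternal, control first), with base pairs to 1.47% (control paternal), and without chromosome 14 to 1.19% and 1.32% (paternal). The share of receptor genes with a peak moved with fold over 10 to 0.410% (control maternal) and 11.5% (Ezh2m-/p+ paternal), with length over 2000 bp to 1.23% (Ezh2m-/p+ maternal), 4.03% and 7.99% (paternal), and with gene bodies to 13.2% and 15.6% (paternal). The inside to outside ratio moved with fold over 10 to 0.127 (control maternal), without the chromosome 14 cluster to 0.715 and 0.761 (paternal), and with receptor peaks alone counted inside to 0.109 and 0.169 (maternal) and 0.658 and 0.690 (paternal), the last because fewer peaks are counted. Overlap with the other genotype moved on the maternal genome to 0% with fold over 10 and to 9.09% as a share of the Ezh2m-/p+ list, and on the paternal genome to 43.8% with fold over 10, 25.2% with 50% reciprocal overlap and 41.9% as a share of the Ezh2m-/p+ list. The share of paternal receptor peaks in the leading cluster fell from 36.0% and 29.7% to 23.0% and 20.3% with clusters split at gaps over 500 kb, which splits that cluster. The ratio of median folds for the control paternal list rose from 1.33 to 2.49 among peaks over 2000 bp, and fell to 1 in both paternal lists among peaks over 10-fold. Apart from the changes that follow from how an alternative was built, the causes were not tested. The settings without chromosome 14, without its cluster, without the Tas2r array, with receptor peaks alone and with clusters that hold a paternal receptor peak were chosen after seeing the data. The number of zygotes and reads behind each list limits which peaks could be called.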

Other observations

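Windows of 1 Mb were counted by which parental genome had a peak in them. Of 132 windows with a receptor gene, 23 had maternal peaks alone in Ezh2m+/p+ zygotes, 45 paternal peaks alone, 34 both and 30 neither. In Ezh2m-/p+ zygotes the counts were 26, 34, 46 and 26. Of the receptor windows with a peak, 33.3% and 43.4% had both, against 45.1% and 52.6% of all 1 Mb windows with a peak.

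Over the 30 clusters of 10 or more genes, Spearman's rho of paternal peaks per Mb with the share of unique 100-base words was 0.254 and 0.295 (control first), and with the repeat-masked share it was -0.417 and -0.396. On the maternal genome these values were 0.326 and 0.420 for unique words and -0.439 and -0.451 for repeats. The points share their libraries, and no cause was tested.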
